A study of Rattus norvegicus with 6 samples.

Results

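A locus of long non-coding RNAs (lncRNAs) on rat chromosome 2, with the identifier XLOC_035736, was described across 6 tissues of Brown Norway (BN) rats. Its members were all rows of the deposited table with that identifier, 4 of 2455 transcripts with values and 1 of 1646 loci. The locus was selected on the FPKM values themselves, because its transcript TCONS_00057726 had been seen in outer medulla and hardly elsewhere. The levels of that transcript, and every contrast of outer medulla with another tissue, are therefore given as a description with no test. RNA came from outer medulla (a region of the kidney), liver, adrenal gland, cortex, hypothalamus and left ventricle of the heart of male BN rats aged 6 weeks, an inbred strain, with 1 sample per tissue and no treatment named. The organ of the cortex sample is not named in its label. The table held 2 columns of FPKM, an abundance scaled for the length of the transcript and the size of the library. They are called column 1 and column 2 of a tissue, and the hypothalamus columns were assigned by elimination of the other 5 codes. The labels do not say if the columns of a tissue are separate animals, so a p-value reflects no more than the spread between columns, and that spread may be technical.

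LncRNAs are transcripts without a long open reading frame, and many are spliced and polyadenylated like messenger RNAs. Most multi-exon genes give rise to several isoforms, through alternative start sites, alternative splice sites or alternative ends, and the choice between them can differ from tissue to tissue. A change of start site can give transcripts with different first exons, sometimes from different promoters, while a small shift of a splice site changes a transcript by a few bases. The outer medulla of the kidney is rich in thick ascending limbs, the segment of the tubule that takes up sodium chloride through the cotransporter encoded by Slc12a1.

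The locus spans 33313 bases on rn5 (chromosome 2, 269129450 to 269162763) as the table gives it, and none of its transcripts was assigned to a reference gene, as was the case for 1722 of the 2455 transcripts. The 4 transcripts fall into 2 pairs by the start-site identifiers of the table. TCONS_00057723 (1215 bases) and TCONS_00057724 (1213 bases) carry the start site TSS45370. TCONS_00057725 (1151 bases) and TCONS_00057726 (1149 bases) carry the start site TSS45371. Within each pair the transcripts differ in length by 2 bases, and the abundant transcript of 1 pair is 64 bases longer than that of the other. More than 1 start site was listed for 264 of the 1646 loci, so this arrangement is common in the table. The strand, the exons and the sequence of the transcripts were not used here, and reads from the parts that isoforms share were divided between them by the authors' FPKM estimate.

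A few facts of the libraries bear on these values. The steps between low FPKM values implied a depth of 3880000 fragments for the shallowest column, liver column 2, and of 31850000 for the deepest, hypothalamus column 2. The hypothalamus and adrenal gland columns shared signal unevenly. Of the level of 129 adrenal gland transcripts, with a mean of at least 1 FPKM there and 5-fold over 4 tissues (hypothalamus not counted), hypothalamus column 1 showed a median of 12.1% and column 2 of 5.50%. Of the level of 91 hypothalamus transcripts chosen likewise, adrenal gland column 1 showed 4.02% and column 2 showed 21.1%. Tissue labels were compared with lncRNAs listed at marker genes. The transcript overlapping Slc12a1 had 36.5 and 36.6 FPKM in outer medulla, against 12.2 and 14.7 in cortex and at most 1.50 in the other 8 columns. It was the only match among 9 genes of outer medulla. For liver 4 of 10 genes were found. The transcripts at Slc27a5, MBL2 and Afp were highest in liver (means of 6.69, 12.4 and 1.04 FPKM), but that overlapping Fga was listed at 0 in liver and averaged 1.29 in adrenal gland, 0.683 in outer medulla and 0.618 in left ventricle. For adrenal gland 1 of 9 was found (Cyp11b3, at 60.5 and 44.4 FPKM in adrenal gland), for hypothalamus 2 of 13, and for left ventricle 0 of 8. Of the cortex lists, 0 of 10 kidney genes and 2 of 11 brain genes were found. The transcripts at those brain genes summed to 0.0872 FPKM in cortex, 0.0236 in outer medulla and 6.46 in hypothalamus. At Slc12a1 the cortex mean of 13.5 FPKM lay between those of outer medulla (36.6) and hypothalamus (0). At these brain genes cortex was nearer to outer medulla than to hypothalamus.

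TCONS_00057726 was an outer medulla transcript in this table. It had 16.6 FPKM in outer medulla column 1 and 8.37 in column 2, a mean of 12.5 ± 5.80 (SD, n = 2 columns). Outside outer medulla it had 0 in 9 columns and 0.0486 in adrenal gland column 1, which corresponds to 0.663 of 1 fragment at the implied depth. Both outer medulla columns stood above every other column, which is the pattern for which the locus had been chosen and so is no finding. At the implied depths its values correspond to 292 and 155 fragments in the 2 outer medulla columns. Taking 3 fragments as what a count of 0 can hide, a listed 0 allows up to 0.0934 FPKM in hypothalamus column 2 and 0.766 in liver column 2. As a share of the locus these limits run from 0.288% in liver column 1 to 1.65% in left ventricle column 1. They cover counting error only, and they assume that fragments could be assigned between isoforms that may share most of their length. By mean FPKM in outer medulla, TCONS_00057726 ranked 27 of 2455 transcripts.

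TCONS_00057724, the transcript that carries most of the locus in the other tissues, was present in all 12 columns. Outer medulla had 16.6 and 24.1 FPKM of it, liver 85.0 and 73.8, adrenal gland 51.8 and 42.7, cortex 31.7 and 30.0. It had 27.4 and 27.1 in hypothalamus, and 17.4 and 26.3 in left ventricle. Liver was the highest tissue in both columns, and the outer medulla columns overlapped those of left ventricle. Its rank by mean FPKM among the 2455 transcripts was 12 in outer medulla and ran from 7 in hypothalamus to 13 in liver. On the log2(FPKM + 0.1) scale its mean in outer medulla was 0.62 below that in cortex (a difference of -0.62), where the SD between columns of this difference was 0.38.

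**Figure D1:**
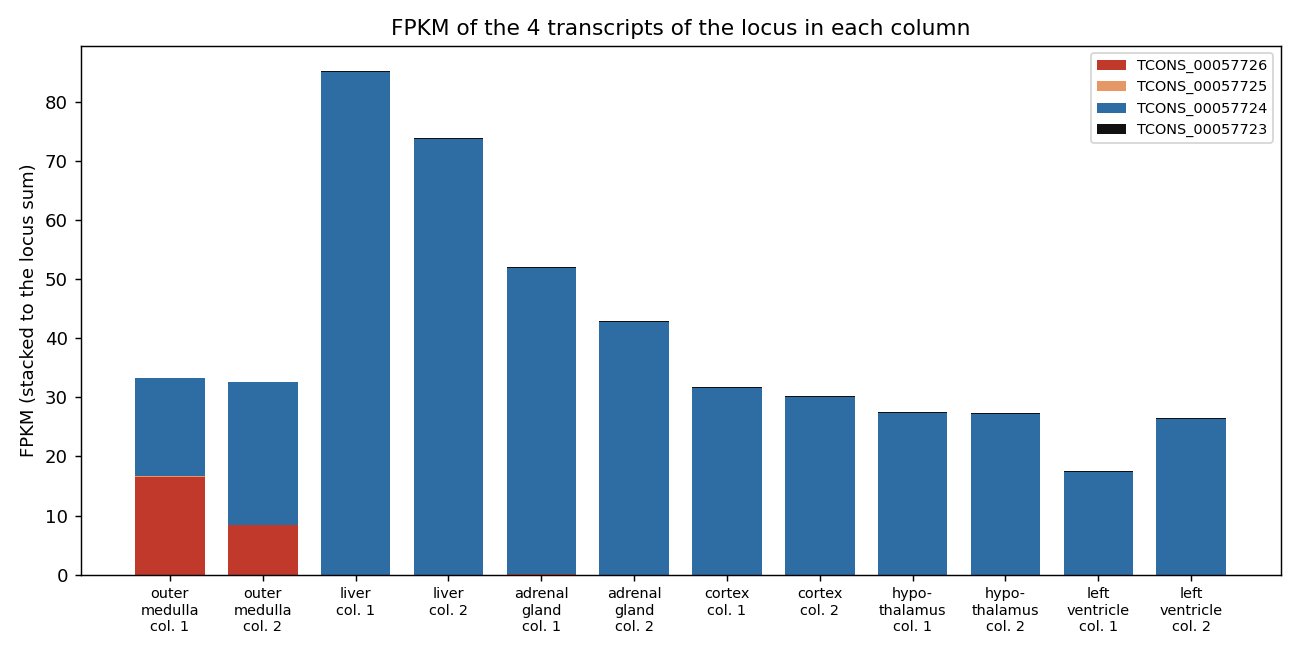
Stacked bars give the FPKM of the 4 transcripts of the locus in each of the 12 columns, so that the height of a bar is the locus sum. The red part, TCONS_00057726, is 16.6 and 8.37 FPKM in the outer medulla columns and 0 or near 0 in the other 10, while the outer medulla bars are 33.3 and 32.7 high and the cortex bars 31.8 and 30.2. TCONS_00057723 and TCONS_00057725 are too low to be seen.

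The locus sum of outer medulla lay close to that of cortex even though the isoforms differed. The sum was 33.3 and 32.7 FPKM in outer medulla (mean 33.0 ± 0.464, SD, n = 2 columns) and 31.8 and 30.2 in cortex (mean 31.0 ± 1.18, SD, n = 2 columns). The log2 difference of outer medulla minus cortex was 0.09, with an SD between columns of 0.058. With columns scaled to a common median, the medians of outer medulla and cortex loci were moved by -0.33 and -0.29 on the log2 scale, and the difference between these tissues was 0.047. TCONS_00057726 took a mean of 37.7% ± 17.1 (SD, n = 2 columns) of the sum in outer medulla, and TCONS_00057724 took 61.8% ± 17.0. In cortex the same shares were 0 and 99.5% ± 0.0210. The 2 cortex columns differed in these shares by at most 0.0297 percentage points.

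The 2 outer medulla columns gave the same locus sum and a different split of it. The sums differed by 1.99% of their mean. TCONS_00057726 took 49.7% of the sum in column 1 and 25.6% in column 2, and TCONS_00057724 took 49.8% and 73.9%. The ratio of TCONS_00057724 to TCONS_00057726 was thus 1.001 in column 1 and 2.88 in column 2. The presence of TCONS_00057726 was seen in both columns, but 2 columns set no limits for the size of its share. A gap between columns of 24.1 percentage points was larger than usual for outer medulla but not the largest. Among the 20 other loci with 2 or more transcripts and a locus sum of 1 FPKM or more in every column, the largest gap of any transcript between the outer medulla columns had a median of 9.52 points, and it exceeded 24.1 points at 3 of them.

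TCONS_00057723 and TCONS_00057725, the longer transcript of each start site, were minor. TCONS_00057725 had 0.0544 and 0.0288 FPKM in outer medulla and 0 in each of the other 10 columns, so that both transcripts of TSS45371 had their highest value in outer medulla column 1. Those 2 values correspond to 0.959 and 0.534 of 1 fragment, so this transcript was at the edge of what the depth can show. For TCONS_00057723 outer medulla had 0.103 and 0.134 FPKM, liver 0.158 and 0.110, adrenal gland 0.149 and 0.162, and cortex 0.166 and 0.166. It had 0.165 and 0.187 in hypothalamus, and 0.164 and 0.165 in left ventricle. These values correspond to between 0.460 fragments in liver column 2 and 6.39 in hypothalamus column 2. Their SD over the 12 columns was 16.2% of their mean, the lowest of 2187 transcripts with a mean over 0.05 FPKM (median 157%). How far these values reflect counted fragments or the division of shared reads between isoforms was not tested. At so few fragments neither a difference between tissues nor an even level could be shown.

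**Figure D2:**
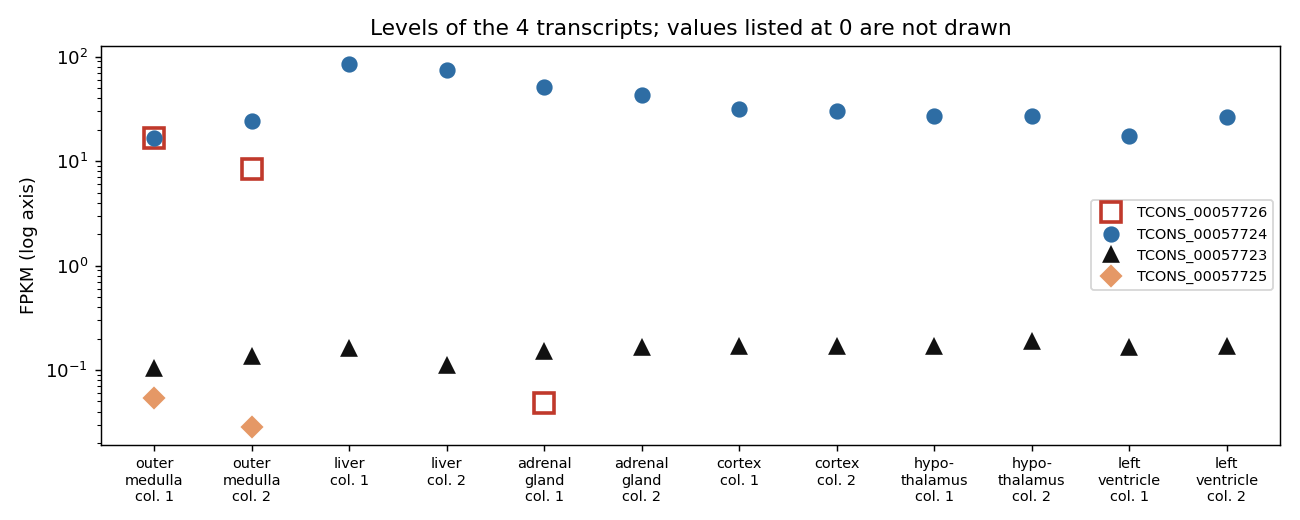
Points give the FPKM of each of the 4 transcripts in each column on a log axis, with values listed at 0 left out. TCONS_00057724 (blue circles) spans 16.6 to 85.0 FPKM, TCONS_00057723 (black triangles) lies between 0.103 and 0.187, and TCONS_00057726 (open red squares) is drawn for both outer medulla columns and for adrenal gland column 1.

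Over all tissues the locus sum was highest in liver, followed by adrenal gland, outer medulla, cortex, hypothalamus and left ventricle, an order in which hypothalamus moved up to second place when columns were scaled to a common median. The means were 79.6 ± 7.99 FPKM in liver, 47.5 ± 6.47 in adrenal gland, 33.0 ± 0.464 in outer medulla, 31.0 ± 1.18 in cortex, 27.4 ± 0.142 in hypothalamus and 22.0 ± 6.26 in left ventricle (SD, n = 2 columns each). By its sum the locus ranked between 8 and 10 of 1646 loci in every tissue, 8 in outer medulla and 10 in liver. It was thus among the more abundant lncRNA loci throughout. In a bulk sample, a lower level in each cell and fewer cells that express the locus cannot be told apart. Between outer medulla and the tissue below it in this order, cortex, the columns did not overlap but the means differed by only 1.06-fold. The ratio of the outer medulla mean to that of liver was 0.415, to adrenal gland 0.695 and to left ventricle 1.50. To hypothalamus it was 1.20, but with the common median outer medulla was 0.95 below hypothalamus on the log2 scale (a difference of -0.95).

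Whether the locus sum differed between the 5 tissues other than outer medulla was tested with limma on log2(sum + 0.1), with 1052 loci and 10 pairs of tissues in 1 Benjamini-Hochberg adjustment. The sum at XLOC_035736 differed in 6 of 10 pairs at an adjusted p below 0.05. Over all loci and pairs 44.2% of tests were called, so calls between tissues were common in the whole table. The liver columns were above those of the other 4 tissues without overlap, but the share of all loci for which this holds was not counted. The locus sum in liver exceeded that in left ventricle by 1.88 on the log2 scale (SE 0.22, adjusted p = 0.000163, limma) and that in hypothalamus by 1.53 (adjusted p = 0.000512, limma), which was 0.63 (adjusted p = 0.0338, limma) with columns scaled to a common median. It exceeded that in cortex by 1.35 (adjusted p = 0.00103, limma) and that in adrenal gland by 0.75 (adjusted p = 0.0225, limma). Of all loci, 20.8% were called higher in liver than in left ventricle, 30.1% than in hypothalamus, 19% than in cortex and 21.2% than in adrenal gland. The difference between liver and adrenal gland was not called without liver column 1 (log2 difference 0.64, adjusted p = 0.0703, limma) or without adrenal gland column 2 (0.61, adjusted p = 0.101, limma).

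Adrenal gland was second to liver. The locus sum in adrenal gland exceeded that in left ventricle by 1.13 on the log2 scale (SE 0.22, adjusted p = 0.00288, limma), a call made for 19.9% of loci in that direction. It exceeded that in hypothalamus by 0.78 (adjusted p = 0.0183, limma), against 27.7% of loci, but with columns scaled to a common median the order turned round (-0.27, adjusted p = 0.342, limma). The call against hypothalamus was also lost without adrenal gland column 1 (adjusted p = 0.0868, limma), without hypothalamus column 1 (adjusted p = 0.0643, limma) and without hypothalamus column 2 (adjusted p = 0.0678, limma). With adrenal gland column 2 and hypothalamus column 1 both removed, it was 0.93 (adjusted p = 0.0708, limma), and the difference between liver and adrenal gland was 0.61 (adjusted p = 0.147, limma). Against cortex the adrenal gland sum was 0.61 higher on the log2 scale (95% interval 0.10 to 1.11, adjusted p = 0.0528, limma), which missed the threshold. It passed without any 1 of the liver or left ventricle columns, at an adjusted p of 0.0249 to 0.0445 (limma).

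With all columns kept, the 3 lowest of these 5 tissues were not separated at the adjusted threshold on the deposited scale. The log2 difference of cortex minus hypothalamus was 0.18 (95% interval -0.33 to 0.68, adjusted p = 0.577, limma), and with columns scaled to a common median it was -0.999 (adjusted p = 0.00371, limma). That scaling moved the median of hypothalamus loci by 0.89 on the log2 scale and those of liver, adrenal gland, cortex and left ventricle by -0.0097, -0.16, -0.29 and -0.10, so the place of hypothalamus in the order rests on the scaling. Cortex minus left ventricle was 0.52 (95% interval 0.020 to 1.02, adjusted p = 0.0889, limma) and hypothalamus minus left ventricle 0.35 (95% interval -0.16 to 0.85, adjusted p = 0.25, limma). The left ventricle columns, 17.6 and 26.4 FPKM, stood further apart than those of cortex or hypothalamus. Without left ventricle column 2 these differences were 0.81 for cortex and 0.64 for hypothalamus, and without left ventricle column 1 they were 0.23 and 0.053. Each of these fits leaves 1 column for left ventricle, so the sizes alone are given. Whether cortex and hypothalamus were separated from left ventricle at the adjusted threshold depended on which left ventricle column was kept.

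**Figure D3:**
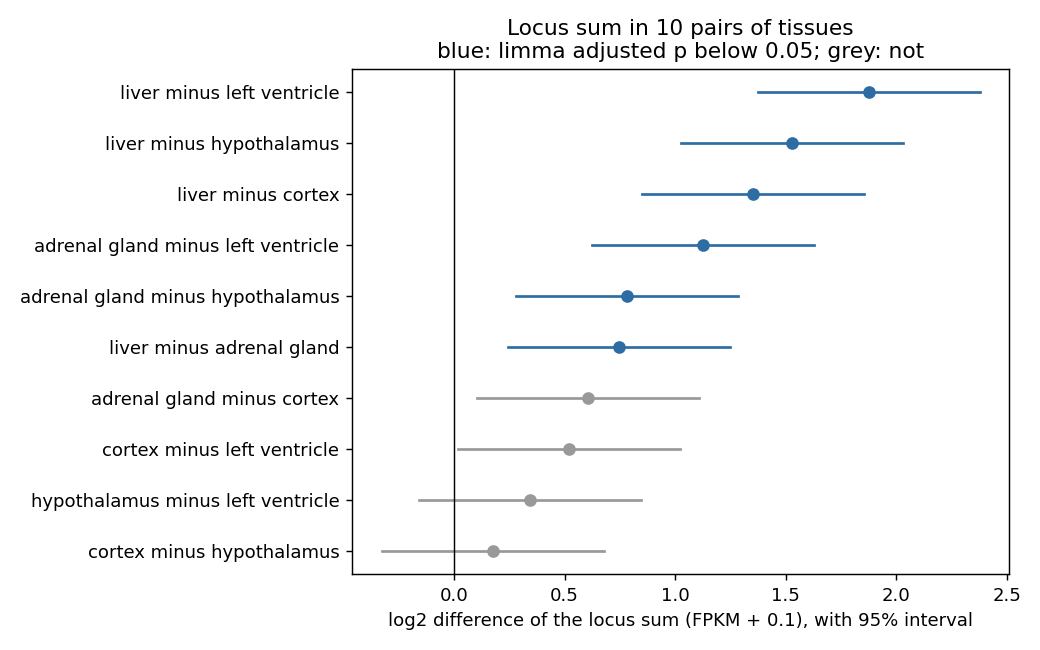
Points give the log2 difference of the locus sum (FPKM + 0.1) between tissues, first named minus second named, and lines its 95% interval from limma, blue where the adjusted p was below 0.05. The 4 differences of liver from other tissues run from 0.75 to 1.88, while the 2 lowest intervals, hypothalamus minus left ventricle and cortex minus hypothalamus, include 0. With columns scaled to a common median, adrenal gland minus hypothalamus and cortex minus hypothalamus change sign.

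At the level of single transcripts, only TCONS_00057724 and TCONS_00057726 reached a mean of 1 FPKM in any tissue, and only TCONS_00057724 was tested. It differed in 5 of the 10 pairs, against 38.8% of all tests over 1269 transcripts. The pairs were liver with cortex, hypothalamus and left ventricle, and adrenal gland with hypothalamus and left ventricle. The log2 difference of liver minus adrenal gland was 0.75 for TCONS_00057724 as for the locus sum, but its adjusted p was 0.0533 (limma). It was called without any 1 of the outer medulla or left ventricle columns, at an adjusted p of 0.0387 to 0.0499 (limma), with a pseudocount of 0.01 (adjusted p = 0.0484, limma) and with the common median (adjusted p = 0.0251, limma). With the common median adrenal gland minus cortex was called too (0.73, adjusted p = 0.0353, limma). So was hypothalamus minus left ventricle (1.25, adjusted p = 0.00251, limma). Cortex minus hypothalamus was called with that scaling at -0.88 (adjusted p = 0.0153, limma), the reverse of its direction as deposited (0.18). The log2 difference of adrenal gland minus hypothalamus was 0.79 (adjusted p = 0.0447, limma). That call was lost without any 1 of the adrenal gland, cortex or hypothalamus columns (adjusted p = 0.0637 to 0.176, limma) and with the column number as a block (adjusted p = 0.0522, limma). It was also lost with a pseudocount of 1 (adjusted p = 0.0679, limma), without an FPKM minimum (adjusted p = 0.067, limma) and without a mean-variance trend (adjusted p = 0.0798, limma), and its direction turned round with the common median (-0.15). The call of adrenal gland against left ventricle was lost without left ventricle column 1 (adjusted p = 0.0538, limma), and that of liver against hypothalamus with the common median (0.64, adjusted p = 0.0594, limma). Without an FPKM minimum, TCONS_00057723 could be set beside it. Its log2 differences between these 5 tissues ran from -0.25 for liver minus hypothalamus (95% interval -0.78 to 0.29, adjusted p = 0.557, limma) to 0.059 for hypothalamus minus left ventricle, and none was called. The added 0.1 is close to its whole level, which draws its differences towards 0.

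Ranges of mean isoform share over tissues as large as the one at this locus were found at other loci of the table. There were 377 loci with 2 or more transcripts, and 21 of them had a sum of 1 FPKM or more in all 12 columns. The largest range of any transcript's mean share over the 6 tissues was 38.0 points at XLOC_035736, which ranked 10 of 21, where the median locus had 34.9 points and XLOC_036749 had 100. These ranges compare means and take no account of gaps between the columns of a tissue. At XLOC_035736 the largest gap was 24.1 points in outer medulla and at most 0.309 in the other tissues. At the 20 other loci its median ran from 8.58 points in left ventricle to 25.4 in liver. How much of their ranges comes from such gaps was not tested. The form of the shift was the property for which XLOC_035736 had been picked, so its place by that form is no finding. It was the 1 locus of the 21 where a transcript took 20% or more of the sum in both columns of 1 tissue and 5% or less in all other columns. With a minimum of 10% in place of 20%, TCONS_00030101 of XLOC_017946 was added, in liver, and with 40% no locus was left, since outer medulla column 2 stood at 25.6%. The count of 1 became 3 without liver column 1 and 2 without liver column 2, adrenal gland column 1, cortex column 1 or hypothalamus column 1.

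**Figure D4:**
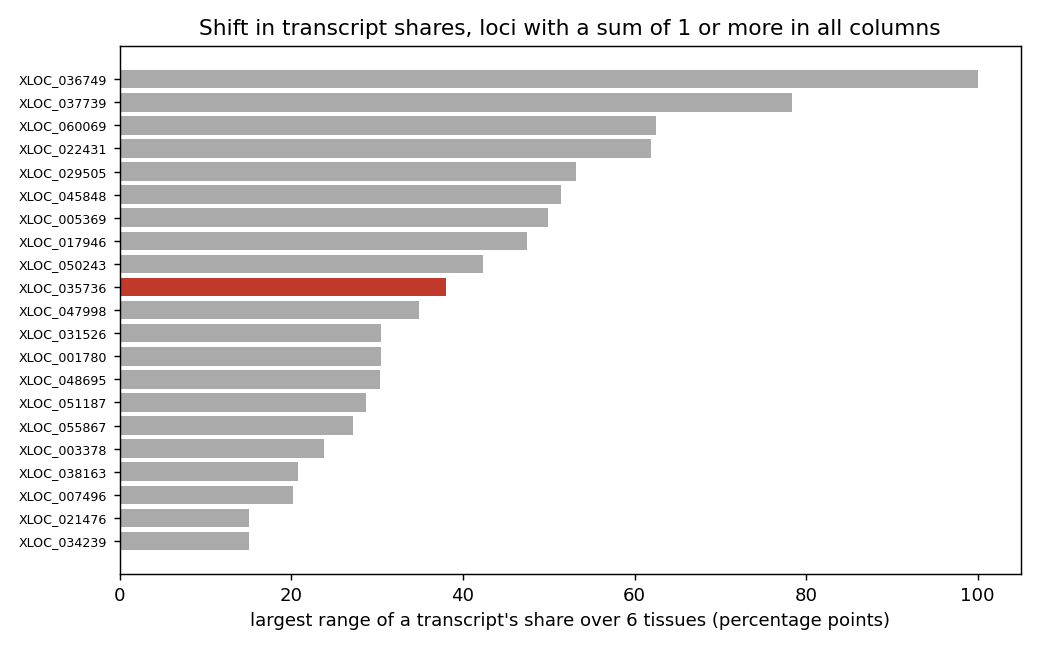
Bars give, for the 21 loci with 2 or more transcripts and a sum of 1 FPKM or more in all columns, the largest range over the 6 tissues of a transcript's mean share of its locus, in percentage points. XLOC_035736, in red, has 38.0 points and ranks 10 of 21.

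The transcripts of other loci most like TCONS_00057726 were lncRNAs of outer medulla that were lower in abundance. Over the 12 columns, on log2(FPKM + 0.1), Pearson's r was 0.998 for TCONS_00011193 (chromosome 1), 0.952 for TCONS_00024835 (chromosome 11), 0.947 for TCONS_00038006 (chromosome 15), 0.93 for TCONS_00055871 (chromosome 2, 159578464 to 159587260) and 0.927 for TCONS_00024834, which shares the locus of TCONS_00024835. All 12 columns enter these values, and a split into 2 outer medulla columns and 10 low columns is enough to give a high r, so they are a description only. TCONS_00024835 had 3.33 and 3.70 FPKM in outer medulla and at most 0.190 elsewhere, and TCONS_00024834 had 2.97 and 3.13 and at most 0.334 elsewhere. TCONS_00055871 had 1.36 and 1.38 in outer medulla and at most 0.266 elsewhere. TCONS_00038006 had 4.85 and 6.34 in outer medulla and at most 0.372 elsewhere, and TCONS_00011193 had 1.66 and 1.10 and was listed at 0 elsewhere. TCONS_00057726 was 1.98-fold higher in outer medulla column 1 than in column 2, and of the 5 transcripts TCONS_00011193 was also higher in column 1 while the other 4 were higher in column 2. None of the 5 was assigned to a reference gene. The Slc12a1 transcript, high in outer medulla and present in cortex, was not among them.

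**Figure D5:**
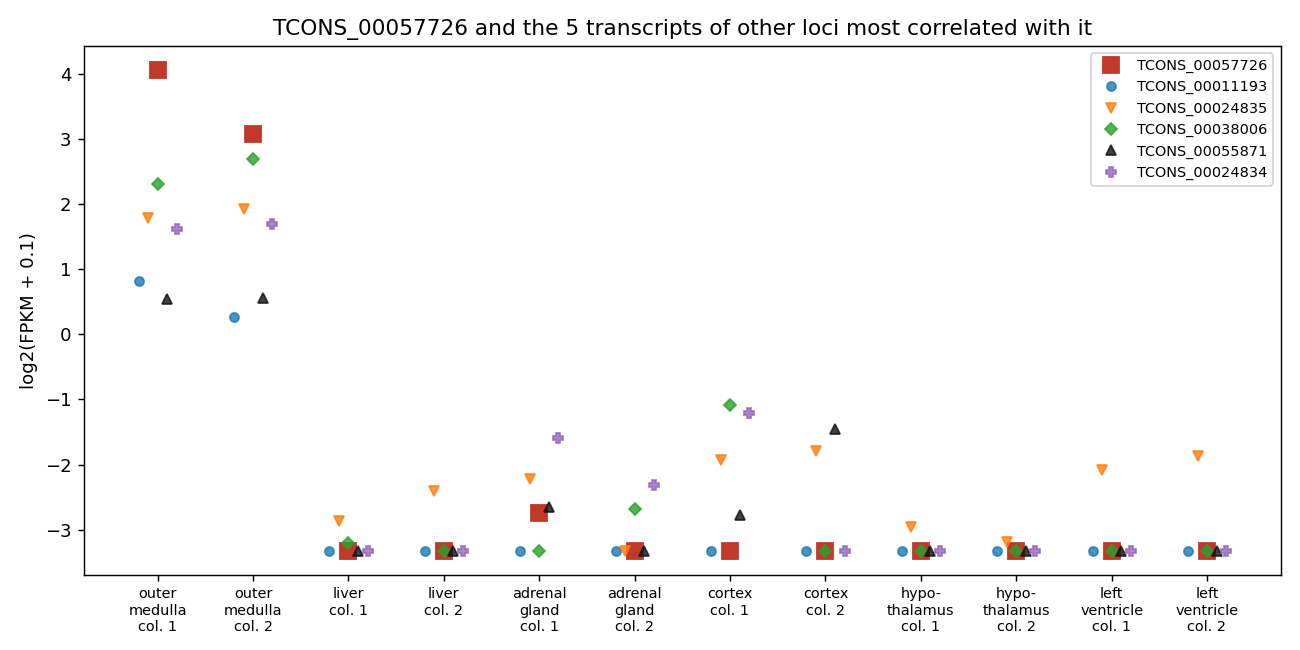
Points give log2(FPKM + 0.1) in each column for TCONS_00057726 (large red squares) and for the 5 transcripts of other loci with the highest Pearson correlation to it, offset sideways for clarity. All 6 are highest in the 2 outer medulla columns, TCONS_00057726 at 16.6 and 8.37 FPKM and TCONS_00011193 at 1.66 and 1.10.

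The transcripts most like TCONS_00057724 were led by TCONS_00049156 (r = 0.876, chromosome 18), TCONS_00056409 (r = 0.872, chromosome 2) and TCONS_00076544 (r = 0.868, chromosome 4). Next were TCONS_00050643 (r = 0.864), which overlaps Ctif, a gene for a translation initiation factor that acts with the nuclear cap-binding complex, and TCONS_00033852 (r = 0.861, chromosome 14). All had their highest value in liver column 1. TCONS_00056409 had 21.8 and 19.3 FPKM in liver, 13.1 and 13.9 in adrenal gland and at most 6.48 in any other column. The loci most like the locus sum were XLOC_035048 (r = 0.918), which holds TCONS_00056409, then XLOC_019273 (0.901), XLOC_014931 (0.886), XLOC_022431 (0.883) and XLOC_066760 (0.879). XLOC_022431 was assigned to Mbnl2, a gene of the muscleblind family of RNA splicing regulators. With columns scaled to a common median, 2 of these 5 loci and 2 of the 5 transcripts remained among the most alike.

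The locus had few neighbours in the table. Within 1 Mb on either side the only other entry was XLOC_035746, 292274 bases away (chromosome 2, 269455037 to 269460257), with the single transcript TCONS_00057736 of 4737 bases and no reference gene. Its levels were far lower, at 0 and 0.704 FPKM in outer medulla, 0.0180 and 0.0562 in liver, 0.331 and 0.307 in cortex and at most 0.0216 in the other 6 columns. In outer medulla it was seen in column 2, the column in which TCONS_00057726 was lower. With 1 column above 0, no level can be set for outer medulla.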

How the data were processed

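RNA from 6 rat tissues, 1 sample each, had been sequenced from TRIzol extracts with a TruSeq stranded kit, per the labels' protocols. Per the submitters' processing notes, bcl2fastq 2.15.0 was run and the genome was rn5. The authors deposited FPKM per transcript, with column names of a Cufflinks tracking file. Not given in the sources used here are the aligner, the program behind the FPKM, whether strand was used, and how lncRNAs were picked. Of the per-sample columns none was unused. Transcripts without values (3) were left out.

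The members and lists were chosen with earlier results of these data known. Shares are the FPKM of a transcript over the sum of its locus. limma 3.58.1 (R 4.3.3) with a mean-variance trend was fitted on log2(FPKM + 0.1) over 12 columns with tissue as factor, for features at a mean of 1 or more in at least 1 tissue, and was tested on simulated data. Two-sided p-values were adjusted over all features and 10 pairs together. Depth was estimated from whole-fragment steps of transcripts over 500 bases alone at their locus, with an assumed fragment of 140 bases. Between 84.0 and 90.7% of low values lay within 0.15 of a whole number. The length of a transcript in bases was a deposited value of another kind. Named items were the 4 members, the 5 features most correlated with TCONS_00057726, TCONS_00057724 and the locus sum, neighbours within 1 Mb, and other loci with an isoform confined to outer medulla. Other tools were Python 3.11.15, pandas 2.3.3 and NumPy 2.4.6. Alternatives were other pseudocounts and minimums, common-median scaling, no trend, a block for the column number, no hypothalamus columns, other share thresholds and each column left out. Leaving out adrenal gland column 2 with hypothalamus column 1, and shares of estimated fragments, were chosen after seeing the data.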

Additional observations from a re-analysis of the deposited data

How the results depend on the processing

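The number of pairs in which the locus sum differed was 6, between 4 and 8 in the other settings and between 5 and 9 with 1 column left out. For TCONS_00057724 it was 5, and 4 to 7 and 4 to 6. With the column number as a replicate block the counts were 6 and 4. The labels do not say that the numbers pair the columns. Without hypothalamus columns 6 pairs were left, and no count over 10 was made. The calls of liver against cortex, hypothalamus and left ventricle, and of adrenal gland against left ventricle, held for the locus sum in every setting that gave a value. With columns scaled to a common median, adrenal gland minus hypothalamus was -0.27, cortex minus hypothalamus -0.999 and hypothalamus minus left ventricle 1.33 (adjusted p = 0.000742, limma). For TCONS_00057724 the first of these was -0.15 and the second -0.88. Adrenal gland minus cortex was 0.73 (adjusted p = 0.0177, limma) with that scaling and 0.61 (adjusted p = 0.0476, limma) with a pseudocount of 0.01. Liver minus adrenal gland was 0.75 (adjusted p = 0.0538, limma) without a mean-variance trend and 0.61 with adrenal gland column 2 and hypothalamus column 1 both removed, where adrenal gland minus hypothalamus was 0.93. The locus sum of outer medulla minus liver was -1.58 and of outer medulla minus hypothalamus -0.95 with the common median, against -1.26 and 0.27 as deposited. Leaving out 1 column at a time, the log2 differences of the locus sum ranged from 0.61 to 0.89 for liver minus adrenal gland, 1.25 to 1.46 for liver minus cortex, 1.43 to 1.63 for liver minus hypothalamus, 1.58 to 2.17 for liver minus left ventricle, 0.47 to 0.75 for adrenal gland minus cortex, 0.64 to 0.92 for adrenal gland minus hypothalamus, 0.84 to 1.42 for adrenal gland minus left ventricle, 0.14 to 0.21 for cortex minus hypothalamus, 0.23 to 0.81 for cortex minus left ventricle and 0.053 to 0.64 for hypothalamus minus left ventricle. The count of loci with a transcript confined to 1 tissue was 2 at a share of 10%, 0 at 40% and 1 to 3 with 1 column left out. Of the 5 features most like TCONS_00057724, 2 were kept with the common median, and of the 5 loci most like the locus sum, 3 with a pseudocount of 1 and 2 with the common median. Apart from what the scaling does by its own construction, the cause was not tested. The share of TCONS_00057726 in outer medulla rests on 2 columns that gave 25.6 and 49.7%.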
